A study of Mus musculus with 36 samples.

Results

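Untreated lungs of C3H mice, an inbred laboratory strain, were followed over 12 weeks on 10 arrays, 2 at each of weeks 0, 3, 6, 9 and 12. These are the arrays labelled with strain C3H and no treatment, 10 of the 36 arrays of the study. The other arrays held 10 untreated A/J lungs of the same weeks, 8 C3H lungs taken 3 to 12 weeks after injected NNK in weekly doses of 100 mg/kg over 4 weeks, and NNK-treated A/J lungs that enter no comparison here. NNK is a nitrosamine from tobacco that causes lung tumours in mice. Total RNA was taken from lung, all mice were kept under a normal light and dark cycle, and the labels give no age, sex or genetic modification. Whether the paired arrays of a week came from separate animals is not stated, so the p-values measure only the spread between arrays, which may be technical.

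The young lung builds its walls by laying down collagen and elastin, which fibroblasts secrete and crosslink outside the cell. Once growth slows, lung cells keep this matrix with little new synthesis. B cells enter the lung from the blood, can gather in follicles drawn by the chemokine Cxcl13, and mature into plasma cells that secrete immunoglobulin.

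The labelled tissue was checked against cell markers, and markers of lung epithelium and endothelium were high on all arrays. Sftpc, the surfactant protein of alveolar type 2 cells, lay between 13.95 and 14.05 on the log2 intensity scale over the 10 arrays. Scgb1a1, secreted by club cells of the airway, lay between 13.67 and 13.95, and the endothelial adhesion molecule Pecam1 between 12.42 and 12.54. None of the 19 alveolar type 2 or 16 alveolar type 1 genes tested passed the trend test in either direction, with median changes over 12 weeks of -0.0033 and -0.020 (log2). In bulk RNA, fewer cells of a type and less RNA per cell cannot be told apart. Replicate arrays of a week differed by an SD of 0.0872 to 0.103 (log2) over genes, and no pair held identical values. Array medians before normalization spanned 0.112 on the log2 scale. Arrays carry no read depth.

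The week trend asked which genes rose or fell over the weeks in the untreated lung, by a linear contrast of the week means. A single jump or a bend can also pass this contrast. Of 14953 genes tested, 420 (2.81%) passed an adjusted p of 0.05, 158 upward (1.06%) and 262 downward (1.75%). The changes were small, with a median size of 0.37 (log2) over 12 weeks among the genes that passed, and the median signed change of all genes was 0.0021. A change of at least 1.5-fold was reached by 48 of the called genes, 21 rises and 27 falls, and a change of at least 2-fold by 15, 11 rises and 4 falls. The count depended on single arrays. It was 78 without the first week 12 array, 172 without the second, 168 and 151 without the first or second week 0 array and 194 without the first week 3 array. Over the 10 fits that each left out 1 array, 55 genes passed in every one, 13 rises and 42 falls, and every other call was lost in at least 1. No called gene that was still tested changed sign in these fits. Of the 420 calls, 208 also passed with a straight line on week, and 55 when fitted on weeks 3 to 12 alone.

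The genes that fell included the main structural collagens, elastin and fibroblast genes. Across 4 lists of matrix and fibroblast genes, 21 of 79 tested members fell and 0 rose, beside 1.75% of all genes that fell and 1.06% that rose. Of these members 64 had a lower estimate and 15 a higher one, with a median of -0.20. The count of falls was 8 without the first week 12 array, 10 without the second and 12 without the second week 0 array. In the fits that left out 1 array, 7 of the 21 falls passed every time, those of Col3a1, Col5a2, Eln, Pi16, Lum, Col1a2 and Col1a1.

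Of the fibrillar collagen list, which also holds collagen-processing enzymes, 9 of 24 tested genes fell and 0 rose. Col3a1 encodes type III collagen, a fibril-forming chain of soft tissue. Its level was 10.95 and 11.01 at week 0, 10.56 and 10.62 at week 3, 10.70 and 10.67 at week 6, 10.25 and 10.32 at week 9 and 10.24 and 10.14 at week 12. Both week 0 arrays were the highest, both arrays of weeks 9 and 12 were below every array of weeks 0 to 6, and no array of week 0 overlapped a later one. It fell by 0.75 ± 0.056 (log2 over 12 weeks, SE of the fit, 10 arrays, limma adjusted p = 0.000385), a 1.68-fold lower level. Col1a1 and Col1a2 encode the 2 chains of type I collagen, the most common collagen of connective tissue. Col1a1 was 11.15 and 11.36 at week 0, 10.63 and 10.77 at week 3, 10.78 and 10.95 at week 6, 10.45 and 10.64 at week 9 and 10.37 and 10.58 at week 12. It too was highest at week 0, week 9 overlapped weeks 3 and 12, and both week 12 arrays lay below both week 3 arrays. It fell by 0.69 ± 0.094 (adjusted p = 0.00651). Col1a2 was 11.81 and 12.01 at week 0, 11.49 and 11.62 at week 3, 11.58 and 11.64 at week 6, 11.36 and 11.43 at week 9 and 11.30 and 11.34 at week 12, and fell by 0.53 ± 0.070 (adjusted p = 0.00494). Both week 12 arrays of Col1a2 lay below every array of the earlier weeks. Col5a2, a chain of the type V collagen that starts fibrils, went from 9.17 as the week 0 mean to 8.56 at week 12 and fell by 0.58 ± 0.064 (adjusted p = 0.00266). The crosslinking enzyme gene Loxl1 fell by 0.57 ± 0.085, and 3 type VI collagen chains, Col6a1, Col6a2 and Col6a3, fell by 0.27, 0.31 and 0.40. The matricellular gene Sparc fell by 0.24.

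**Figure D1:**
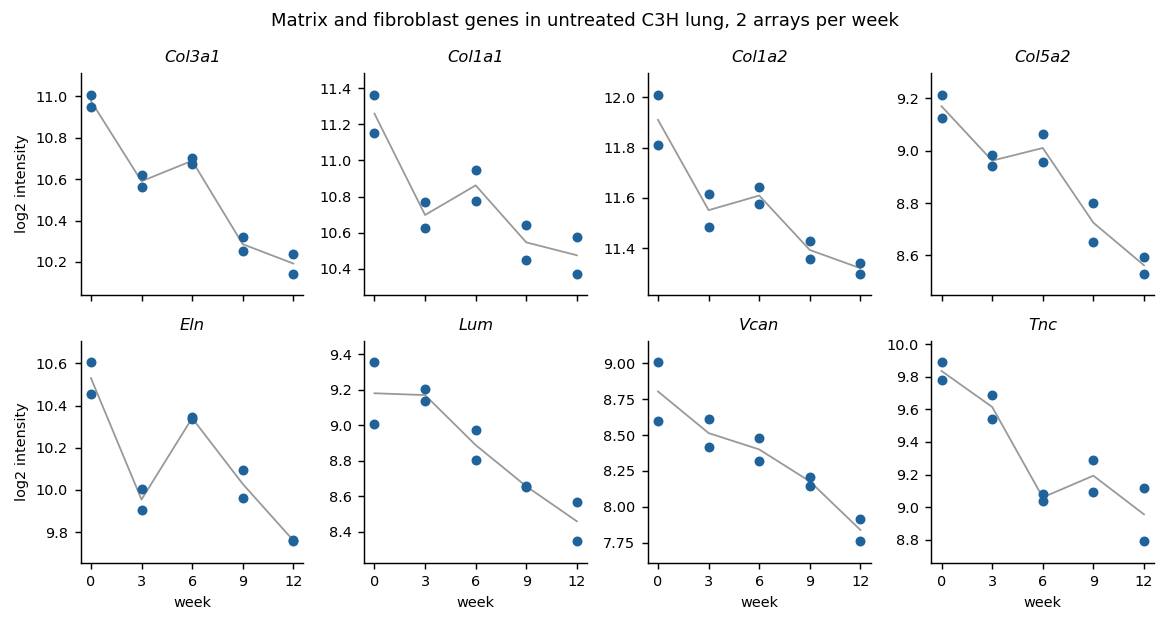
Log2 intensity (y axis) by week (x axis) of 8 matrix and fibroblast genes in the 10 untreated C3H arrays. Points are arrays and grey lines join the means of 2 arrays, and each panel has its own y range. Col3a1 went from 10.95 and 11.01 at week 0 to 10.24 and 10.14 at week 12, and Eln dropped at week 3, lay higher at week 6 and was lowest at week 12.

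The first bases upstream of a pair of these falling collagen genes are shown because Col3a1 had the smallest p of the collagens and Col1a2 carries a CCAAT box, a common promoter element, in this window. The sequences are RefSeq's of build GRCm38.p6, 5′ to 3′ on the gene's strand, with 200 bases ending just before the annotated start. Capitals mark CCAAT, searched on both strands as CCAAT or ATTGG.
Col3a1 (chr1:45311338-45311537, plus strand): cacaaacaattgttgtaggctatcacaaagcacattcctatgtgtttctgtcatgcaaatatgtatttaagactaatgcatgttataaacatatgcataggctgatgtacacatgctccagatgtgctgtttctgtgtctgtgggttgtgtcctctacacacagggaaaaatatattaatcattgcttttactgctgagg
Col1a2 (chr6:4505418-4505617, plus strand): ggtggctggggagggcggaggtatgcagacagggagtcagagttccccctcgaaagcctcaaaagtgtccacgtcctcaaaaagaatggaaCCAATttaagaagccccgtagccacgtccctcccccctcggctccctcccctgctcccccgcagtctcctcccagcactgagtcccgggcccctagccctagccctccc
Col1a2 held 1 match, starting 109 bases before the start, and Col3a1 held 0. In windows from 250 bases before to 50 after the start, 2 of the 17 collagen-list genes with a promoter in the table (11.8%) held CCAAT, beside 41.1% of all 27025 genes there. A match or its absence describes only the letters in this window, and this motif was chosen for the collagens after their values were known.

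Of 14 elastic fibre genes 3 fell and 0 rose, the list median being -0.19. Eln, which encodes elastin, the stretchable core of these fibres, was 10.61 and 10.46 at week 0, 9.90 and 10.01 at week 3, 10.34 and 10.34 at week 6, 9.96 and 10.09 at week 9 and 9.76 and 9.76 at week 12. It did not follow a straight course, since both week 3 arrays lay below both week 6 arrays. Its fall over 12 weeks was 0.59 ± 0.065 (adjusted p = 0.00266), and its step from week 0 to week 3 also passed, at -0.58 ± 0.072 (adjusted p = 0.0178). The fall of Eln did not pass with a straight line on week or on weeks 3 to 12 alone (limma adjusted p = 0.0781 and 0.0844). The microfibril genes Mfap2 and Mfap5 fell by 0.50 ± 0.080 and 0.46 ± 0.086 (adjusted p = 0.013 and 0.023), calls lost in 2 and 3 of the 10 fits with an array left out.

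Basement membranes are the sheets under epithelium and endothelium. Of 19 genes tested, 4 fell and 0 rose, and the list median was -0.20. Col4a1, a chain of the network-forming type IV collagen, fell by 0.36 ± 0.067 (adjusted p = 0.0224). Lamc1, a laminin chain, fell by 0.28, the vascular collagen gene Col15a1 by 0.32 and the linker Nid2 by 0.34. Each of these 4 falls lost its call in 3 to 8 of the 10 fits with an array left out.

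Of 25 fibroblast genes tested 7 fell, Col1a1, Col1a2 and 5 others, with 0 rises and a list median of -0.12. Lum encodes lumican, a proteoglycan that spaces collagen fibrils. It was 9.01 and 9.36 at week 0, 9.14 and 9.20 at week 3, 8.80 and 8.97 at week 6, 8.65 and 8.66 at week 9 and 8.35 and 8.57 at week 12. Week 3 arrays were within the week 0 range, and all 4 arrays of weeks 9 and 12 were below the others. The fall was 0.78 ± 0.10 (adjusted p = 0.0045). Pi16, a marker of adventitial fibroblasts, fell by 0.46 ± 0.056, the matrix protein gene Dpt by 0.40 ± 0.068, the receptor gene Pdgfrb by 0.33 ± 0.063 and the growth factor gene Fgf10, which drives lung branching in the embryo, by 0.37 ± 0.080. Left out 1 at a time, the arrays cost Pdgfrb its call in 4 fits and Fgf10 in 8. Of 10 pericyte genes 2 fell, beside 1.75% of all genes. Rgs5 fell by 0.53 ± 0.066 and the guanylate cyclase subunit gene Gucy1b1 by 0.25 ± 0.052. The call of Gucy1b1 was lost in 9 of the 10 fits with an array left out. All 14 smooth muscle and myofibroblast genes had lower estimates, with a median of -0.21, and none passed.

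Among the largest falls outside these lists were Vcan and Tnc, which encode the matrix proteins versican and tenascin C of growing and remodelling tissue. Vcan was 8.60 and 9.01 at week 0, 8.41 and 8.61 at week 3, 8.32 and 8.48 at week 6, 8.21 and 8.15 at week 9 and 7.76 and 7.92 at week 12, and both week 12 arrays were the lowest. It fell by 0.91 ± 0.11 (adjusted p = 0.00382). Tnc was 9.78 and 9.89 at week 0, 9.69 and 9.54 at week 3, 9.04 and 9.08 at week 6, 9.09 and 9.29 at week 9 and 8.79 and 9.12 at week 12, and all arrays from week 6 on lay below all arrays of weeks 0 and 3. It fell by 0.87 ± 0.10 (adjusted p = 0.00266). Kdelr3, a receptor that returns proteins to the endoplasmic reticulum, fell by 0.96 ± 0.10, and Prdm8, which encodes a transcriptional regulator, by 0.92 ± 0.11 (adjusted p = 0.00266 and 0.00373). The olfactory receptor gene Olfr1463 and the hair keratin-associated gene Krtap19-2 fell by 1.05 and 0.96, and each of these 2 calls was lost in 6 of the 10 fits with an array left out.

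The falls did not lie evenly along the weeks. The median step of the 21 matrix falls was -0.24 from week 0 to 3, 0.058 from week 3 to 6, -0.18 from week 6 to 9 and -0.080 from week 9 to 12. These steps come from the arrays that chose the 21 genes and are given without a test. Fitted on weeks 3 to 12 alone, 4 of the matrix and fibroblast genes fell.

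Cardiac muscle genes moved with some of these arrays. None of 14 tested cardiac genes passed the trend test, and 12 had lower estimates with a median of -0.47. The list's mean level lay between 8.96 and 9.82, lowest on the first arrays of weeks 12 and 9. Myh6, the heavy chain of atrial and pulmonary vein muscle, was 9.38 and 9.05 on those arrays and 10.54 and 10.21 on the other array of each week. Fat genes were similar, with 0 of 9 called, a median of -0.57 and list means from 8.23 to 9.03. Of the 2 week 12 arrays, Col1a1, Col1a2, Col5a2, Lum, Vcan and Tnc were lower on the first, where the cardiac genes were low, and Col3a1 and Eln were lower on the second. The part of these tissues in the matrix result was not tested.

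Genes of early growth fell in part. Of 15 imprinted growth genes, which are expressed from 1 parental copy, 2 fell and 0 rose. Among all genes 1.75% fell and 1.06% rose. Mest, active in growing mesoderm, was 10.94 and 10.96 at week 0, 10.78 and 10.75 at week 3, 10.69 and 10.77 at week 6, 10.52 and 10.40 at week 9 and 10.41 and 10.09 at week 12. Its 4 arrays of weeks 9 and 12 were below all earlier arrays, and it fell by 0.68 ± 0.084 (adjusted p = 0.00382). Peg3, which encodes a zinc finger protein, was 8.92 and 8.92 at week 0, 8.77 and 8.81 at week 3, 8.84 and 8.82 at week 6, 8.66 and 8.54 at week 9 and 8.33 and 8.36 at week 12, and both week 12 arrays were the lowest. It fell by 0.53 ± 0.054 (adjusted p = 0.00266). Igf2, a fetal growth factor, did not pass, with -0.031 ± 0.061 and levels of 9.28 to 9.57. Of 32 lung morphogens and growth factor signalling genes 5 fell (beside 1.75% of all genes) and 0 rose. These were Fgf10 and Pdgfrb with Igf1, a growth factor made by lung fibroblasts (-0.57 ± 0.11, adjusted p = 0.0257), Tgfb3 (-0.25 ± 0.055) and the lymphatic growth factor gene Vegfc (-0.25 ± 0.058). The call of Tgfb3 was lost in all 10 fits with an array left out and that of Igf1 in 4.

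Cell cycle genes followed another course. Of 30 tested genes 2 fell (beside 1.75% of all genes) and 0 rose over the 12 weeks. The list held 28 lower estimates and had a median of -0.27. The list's mean level on the arrays was 7.97 and 8.33 at week 0, 8.66 and 8.35 at week 3, 8.38 and 8.36 at week 6, 8.13 and 8.07 at week 9, and 8.11 and 8.03 at week 12. Week 3 held the highest array, week 0 overlapped weeks 9 and 12, and the first week 0 array was the lowest of all. Bub1, a kinase of the mitotic checkpoint, fell by 0.69 ± 0.14, and Kif23, a motor of cell division, by 0.53 ± 0.10 (adjusted p = 0.0297 and 0.0267). Neither call passed in every fit that left out an array. Mki67, a marker of dividing cells, was 8.28 and 8.82 at week 0, 9.39 and 8.98 at week 3, 9.01 and 8.99 at week 6, 8.53 and 8.41 at week 9 and 8.59 and 8.43 at week 12. Its change over 12 weeks did not pass (-0.32 ± 0.15, adjusted p = 0.265), while over weeks 3 to 12 alone it fell by 0.77 (adjusted p = 0.035). Top2a, a DNA topoisomerase of dividing cells, behaved alike in values, with -0.31 ± 0.15 over 12 weeks and a fall by 0.70 over weeks 3 to 12 (adjusted p = 0.0377).

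The promoter of Kif23 is shown for the motifs of the cell cycle list. Its 200 bases before the start, with CCAAT on either strand in capitals, are the following, from RefSeq on GRCm38.p6.
Kif23 (chr9:61946800-61946999, minus strand): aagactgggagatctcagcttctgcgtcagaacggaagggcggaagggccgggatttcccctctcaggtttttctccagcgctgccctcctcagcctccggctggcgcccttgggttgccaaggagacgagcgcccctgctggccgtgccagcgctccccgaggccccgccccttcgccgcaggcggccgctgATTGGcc
The match reads ATTGG, the opposite-strand form, and starts 7 bases before the start. In the windows of 250 bases before to 50 after the start, CCAAT stood in 25 of 32 cell cycle genes with a promoter in the table (78.1%) beside 41.1% of all genes. TTTGAA, searched also as TTCAAA, stood in 17 of 32 (53.1%) beside 20.2% of all genes. TTTGAA was not in the 200 bases printed for Kif23, although its longer window held it, and matches in the printed sequences did not overlap. These shares describe the list and not its change over the weeks.

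B cell and plasma cell genes rose. Across both lists 9 of 30 tested genes rose and 0 fell, beside 1.06% of all genes that rose and 1.75% that fell. Of these genes 27 had a higher estimate, with a median of 0.55. The count of rises was 3 without the first week 12 array and 18 without the first or without the second week 6 array. Those last fits are the same, because the linear contrast gives week 6 no weight and only the spread of its pair leaves the fit. It was 5 and 4 without the first or second week 0 array, 5 without the first week 3 array and 5 without the second week 12 array. The rises of Cd22, Derl3 and Mzb1 passed in every fit that left out 1 array.

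Jchain encodes the chain that joins secreted immunoglobulin M and A, a product of plasma cells. Its level was 8.19 and 8.19 at week 0, 9.69 and 9.10 at week 3, 10.48 and 8.85 at week 6, 9.54 and 9.77 at week 9 and 11.51 and 10.84 at week 12. The week 0 arrays were equal to 2 decimals and the lowest, the week 12 arrays were the highest, and the 2 week 6 arrays lay far apart. The rise was 2.49 ± 0.37 (log2 over 12 weeks, adjusted p = 0.00889), a 5.6-fold higher level, and its adjusted p reached 0.0557 in 1 of the 10 fits with an array left out. Ighm, the heavy chain of immunoglobulin M, was 9.52 and 9.33 at week 0, 9.67 and 9.66 at week 3, 10.12 and 9.43 at week 6, 9.72 and 9.96 at week 9 and 10.65 and 10.53 at week 12. Both week 12 arrays were the highest, and it rose by 0.999 ± 0.16 (adjusted p = 0.012), a call lost in 2 of those fits. Mzb1, a chaperone for immunoglobulin assembly, rose by 0.85 ± 0.12, from a mean of 7.59 at week 0 to 8.58 at week 12 (adjusted p = 0.00714). Derl3, part of the protein disposal machinery of secretory cells, rose by 0.55 ± 0.072 (adjusted p = 0.00494). Igha, the heavy chain of immunoglobulin A, lay between 8.28 and 10.67 and did not pass (1.28 ± 0.45, adjusted p = 0.155).

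Of 18 B cell genes 5 rose, 17 had higher estimates and the median was 0.57. Cd22, a surface receptor that restrains B cell signalling, was 9.45 and 9.52 at week 0, 9.55 and 9.61 at week 3, 9.66 and 9.43 at week 6, 9.71 and 9.76 at week 9 and 10.01 and 10.09 at week 12. The second week 6 array was the lowest and both week 12 arrays the highest. It rose by 0.52 ± 0.071 (adjusted p = 0.00658). The complement receptor gene Cr2 rose by 0.84 ± 0.18, the kinase gene Blk by 0.57 ± 0.11, the coactivator gene Pou2af1, which both lists hold, by 0.78 ± 0.17 and the immunoglobulin M receptor gene Fcmr by 0.73 ± 0.16. The calls of Cr2, Blk and Pou2af1 were lost in 8, 5 and 8 of the 10 fits with an array left out. Cd79a, a chain of the B cell receptor, missed the threshold (0.65 ± 0.15, adjusted p = 0.053). Of 13 genes tested in the plasma cell and immunoglobulin list, 5 rose and 0 fell, with a median of 0.31.

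Among the 10 largest rises that passed the test, 5 were variable segments of the immunoglobulin kappa light chain, a multigene family whose probes may read related segments. Igkv4-91 was 8.58 and 8.12 at week 0, 11.04 and 9.71 at week 3, 11.61 and 9.46 at week 6, 10.65 and 11.11 at week 9 and 12.87 and 12.50 at week 12. The week 0 arrays were the lowest and the week 12 arrays the highest, and it rose by 3.67 ± 0.51 (adjusted p = 0.00706). Igkv19-93, Igkv6-20, Igkv4-55 and Igkv10-96 rose by 2.01, 1.67, 1.61 and 1.54. These calls were lost in 5, 2, 2 and 4 of the 10 fits with an array left out. With a straight line on week Igkv4-55 had limma adjusted p = 0.0781. The other rises among these 10 included Cxcl13, the chemokine that draws B cells into follicles (1.43 ± 0.31, adjusted p = 0.0389), and Pla2g2d, a secreted phospholipase of lymphoid tissue (1.28 ± 0.19, adjusted p = 0.00926). They also included Slc6a20a, an amino acid transporter (1.04 ± 0.17, adjusted p = 0.013). The calls of Cxcl13, Pla2g2d and Slc6a20a were lost in 7, 2 and 3 of the 10 fits with an array left out, and with a straight line on week Cxcl13 had adjusted p = 0.0626.

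**Figure D2:**
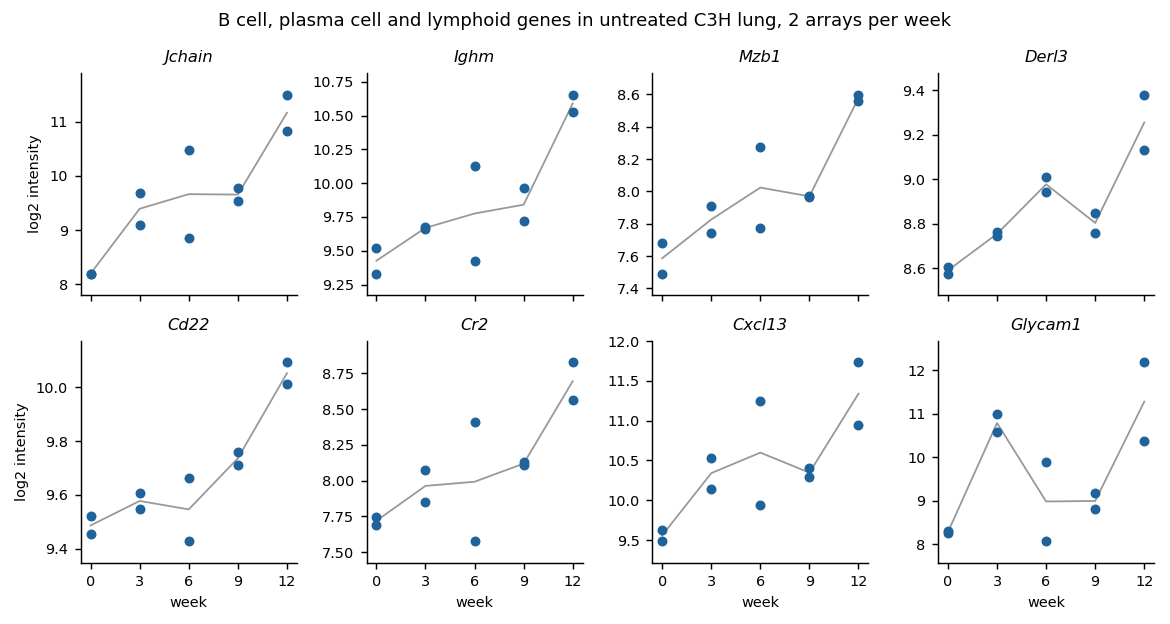
Log2 intensity (y axis) by week (x axis) of 8 B cell, plasma cell and lymphoid genes in the 10 untreated C3H arrays. Points are arrays, grey lines join the means of 2 arrays, and each panel has its own y range. Week 12 arrays were the highest for Jchain and Ighm, and the second week 6 array lay below the first in every panel.

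The 9 B and plasma cell rises lay mostly in the last interval, with median steps of 0.24, 0.029, 0.13 and 0.56 into weeks 3, 6, 9 and 12, given without a test. Fitted on weeks 0 to 9 alone, 0 of these lists' genes rose, and on weeks 3 to 12 alone 1 did. Glycam1, an adhesion ligand made by vessels of lymph nodes, differed widely between arrays. It was 8.30 and 8.26 at week 0, 10.99 and 10.59 at week 3, 9.89 and 8.07 at week 6, 9.18 and 8.81 at week 9 and 12.19 and 10.38 at week 12 and did not pass (1.68 ± 0.51, adjusted p = 0.107). It was high on both arrays of weeks 3 and 12 and lowest on the second week 6 array. The B cell list's mean was highest on the first week 12 array, at 9.62, and lowest on the second week 6 array, at 8.70. The part of Glycam1 in the B cell result was not tested. Thymus genes were flat, with list means of 7.53 to 7.63 and 0 of 6 called. T cell genes also stayed level, with 1 of 19 rising, Il7r (beside 1.06% of all genes), and a median of 0.0044. Cd3e, a chain of the T cell receptor complex, lay between 9.25 and 9.72.

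Other immune lists also had calls. Of 10 tested genes of MHC class II presentation, the display of peptides to helper T cells, 2 rose (beside 1.06% of all genes). All 10 had higher estimates. H2-Eb2, a class II beta chain gene, rose by 0.46 ± 0.069, and the master regulator of the pathway Ciita by 0.32 ± 0.072 (adjusted p = 0.00926 and 0.0416). These calls were lost in 1 and 6 of the 10 fits with an array left out, and without quantile normalization Ciita had adjusted p = 0.0605. Of 12 neutrophil genes 3 fell (beside 1.75% of all genes) and 0 rose, with a median of -0.32. Cxcr2, the receptor that guides neutrophils, was 8.84 and 8.57 at week 0, 8.38 and 8.49 at week 3, 8.27 and 8.35 at week 6, 8.52 and 8.72 at week 9 and 8.02 and 8.002 at week 12. Both week 12 arrays were the lowest and week 9 overlapped week 0, and it fell by 0.48 ± 0.084 (adjusted p = 0.0179). This call was lost in 3 of the 10 fits with an array left out. With a straight line on week Cxcr2 had limma adjusted p = 0.152. It had 0.0532 with the spread of all 18 C3H arrays and 0.103 on weeks 3 to 12 alone. The calcium-binding protein gene S100a9 fell by 0.31 and the protease gene Mmp9 by 0.29. These 2 calls were lost in 7 and 10 of the 10 fits with an array left out. Without quantile normalization both missed the threshold (limma adjusted p = 0.0769 and 0.0820). Interferon response genes had 0 calls among 24, with a median of 0.022.

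Ciliated cell genes build the beating axoneme of airway cells. Among 27 tested 3 rose (beside 1.06% of all genes) and 0 fell, with 23 higher estimates and a median of 0.14. Hydin, a part of the central pair apparatus, rose by 0.30 ± 0.066, the radial spoke gene Rsph4a by 0.32 ± 0.074 and the cadherin gene Cdhr3 by 0.26 ± 0.060 (adjusted p = 0.0388, 0.0463 and 0.0471). These calls were lost in 9, 7 and 10 of the 10 fits with an array left out. Without quantile normalization none of the 3 passed (limma adjusted p = 0.0520, 0.0632 and 0.0598). Foxj1, the regulator of motile cilia, did not pass (0.13 ± 0.071).

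**Figure D3:**
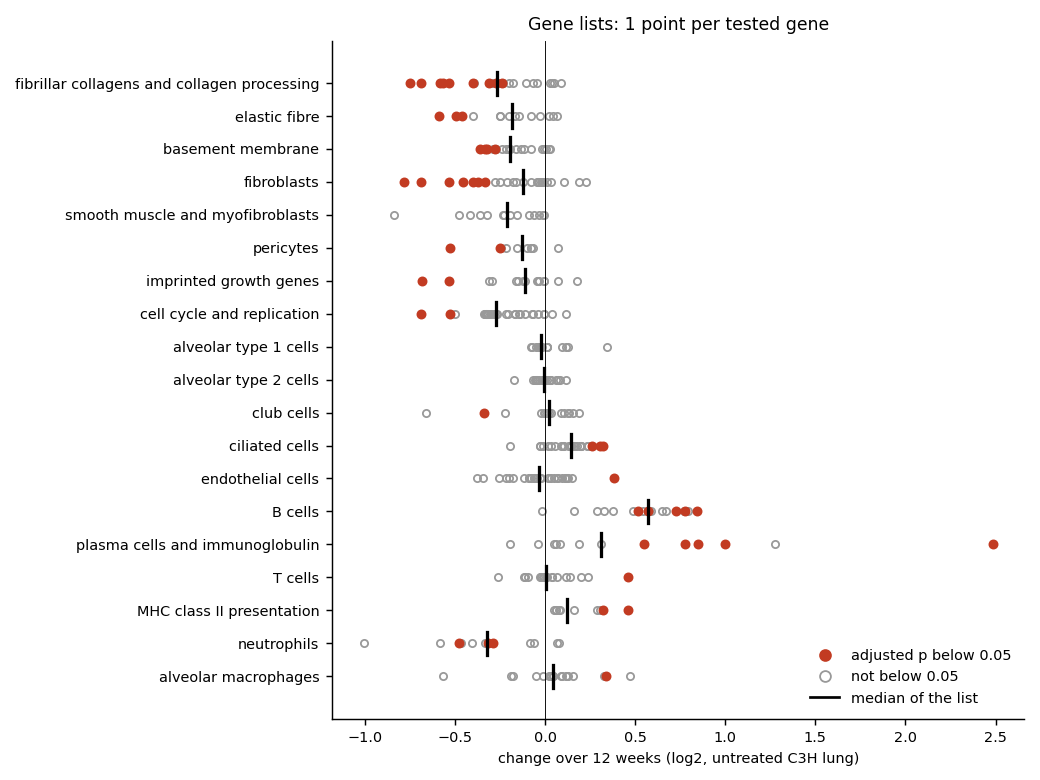
Change over 12 weeks (x axis, log2) of each tested gene in 19 gene lists (y axis), untreated C3H arrays. Filled red points passed an adjusted p of 0.05, open grey points did not, and black bars are list medians. The matrix and fibroblast lists hold filled points below 0 only and the B and plasma cell lists above 0 only, while the medians of the alveolar lists lie close to 0.

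Among tested genes, 2 of the liver list and 1 of the red cell list rose. Alb, which encodes serum albumin, was 7.68 and 7.44 at week 0, 7.60 and 7.64 at week 3, 7.62 and 9.41 at week 6, 10.33 and 10.20 at week 9 and 8.76 and 9.27 at week 12. It was low on all arrays of weeks 0 and 3 and on the first week 6 array, highest at week 9, and again lower at week 12. The linear change was 2.22 ± 0.37 (adjusted p = 0.0149). With a straight line on week Alb had limma adjusted p = 0.0784. Its call was lost in 3 of the 10 fits with an array left out. Of 5 liver genes tested 2 rose, beside 1.06% of all genes. The second was the apolipoprotein gene Apoa2 (0.28 ± 0.057), whose call was lost in 7 of those fits. In the NNK-treated C3H arrays Alb was also lowest at week 3, with 7.63 and 7.68, and highest at week 9, with 11.66 and 11.42. Alas2, the first enzyme of haem synthesis in red cell precursors, was 10.68 and 10.80 at week 0, 11.18 and 11.36 at week 3, 11.50 and 11.47 at week 6, 11.41 and 11.45 at week 9 and 11.36 and 11.14 at week 12. Both week 0 arrays were the lowest, and it rose by 0.47 ± 0.076 (adjusted p = 0.013, lost in 2 of those fits), while over weeks 3 to 12 its change was -0.034 and did not pass.

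Steps between neighbouring weeks asked when genes moved. From week 0 to week 3, 15 genes passed (0.1%), 10 upward (0.0669%) and 5 downward (0.0334%). With limma no gene passed for the later steps, where 1806, 1114 and 1668 genes had an unadjusted p below 0.05 and the smallest adjusted p was 0.109, 0.191 and 0.125. The count of the first step was 2 without either week 3 array, 8 and 6 without the first or second week 0 array and 9 without either week 9 array. A departure from a straight line, tested as a moderated F over the week means, was called for 8 genes (0.0535%). It was called for 0 without the first week 3 array, 2 without the second, 1 and 2 without the first or second week 0 array, 3 without the second week 9 array, 5 without the second week 6 array and 1 without either week 12 array.

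The falls of this first step included hairpins of 1 microRNA. MicroRNAs silence messages by pairing through their seed, bases 2 to 8, and the probe sets named for them cover the hairpin, so they do not measure the mature RNA alone. Mir680-1, Mir680-2 and Mir680-3 lie on chromosomes 6, X and 12 and give the same mature miR-680. It is shown, seed in capitals, since the 3 hairpin genes share it but their probe sets moved differently. Also shown are mature forms from Mir30e and Mir181b-1, which fell and are described with the other strain (RefSeq, GRCm38.p6).
miR-680: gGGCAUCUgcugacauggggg
miR-30e-5p: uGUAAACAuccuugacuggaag
miR-181b-5p: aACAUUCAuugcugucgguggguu
The 3 seeds differ from each other. Mir680-2 was 9.89 and 9.70 at week 0, 8.44 and 8.51 at week 3, 8.14 and 8.13 at week 6, 8.52 and 8.40 at week 9 and 8.05 and 8.25 at week 12. Only the week 0 arrays were high, and the step to week 3 was -1.33 ± 0.086 (adjusted p = 0.000189), with a trend of -1.32 ± 0.077 (adjusted p = 6.24e-05). Mir680-1 was 9.32 as the week 0 mean and 8.64 at week 3, a step of -0.68 ± 0.10 (adjusted p = 0.0431). Mir680-3 did not pass, with a trend of 0.086 ± 0.10 and levels of 9.81 to 10.21. The vomeronasal receptor pseudogene Vmn2r-ps104 was likewise high at week 0 alone, 8.99 and 8.74 against 7.97 to 8.17 afterwards, with a step of -0.73 ± 0.079 (adjusted p = 0.00666). In untreated A/J lungs these probe sets differed between arrays of 1 week. At week 3 Mir680-2 was 11.52 and 9.50 and Vmn2r-ps104 was 10.98 and 8.47.

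The largest rises into week 3 were those of Cstdc2, Bod1 and Htr2b. Cstdc2, a member of the stefin family of protease inhibitors, was 8.86 and 8.88 at week 0, 9.69 and 9.56 at week 3, 9.35 and 9.27 at week 6, 9.30 and 9.30 at week 9 and 9.17 and 9.24 at week 12. It was lowest at week 0 and highest at week 3, and no array of weeks 0 or 3 overlapped the others. The step was 0.75 ± 0.065 (adjusted p = 0.00164). Bod1, which takes part in chromosome alignment, went from 7.28 and 7.11 to 8.004 and 7.89 and was 7.29 and 7.39 at week 12, the step being 0.75 ± 0.080 (adjusted p = 0.00647). Htr2b, a serotonin receptor gene, rose by 0.61 ± 0.070 (adjusted p = 0.00918) and stayed above its week 0 arrays in all later arrays. Npr3, the clearance receptor for natriuretic peptides, departed from a line (adjusted p = 0.0433), with week means of 10.43, 10.43, 10.76, 10.69 and 10.15.

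**Figure D4:**
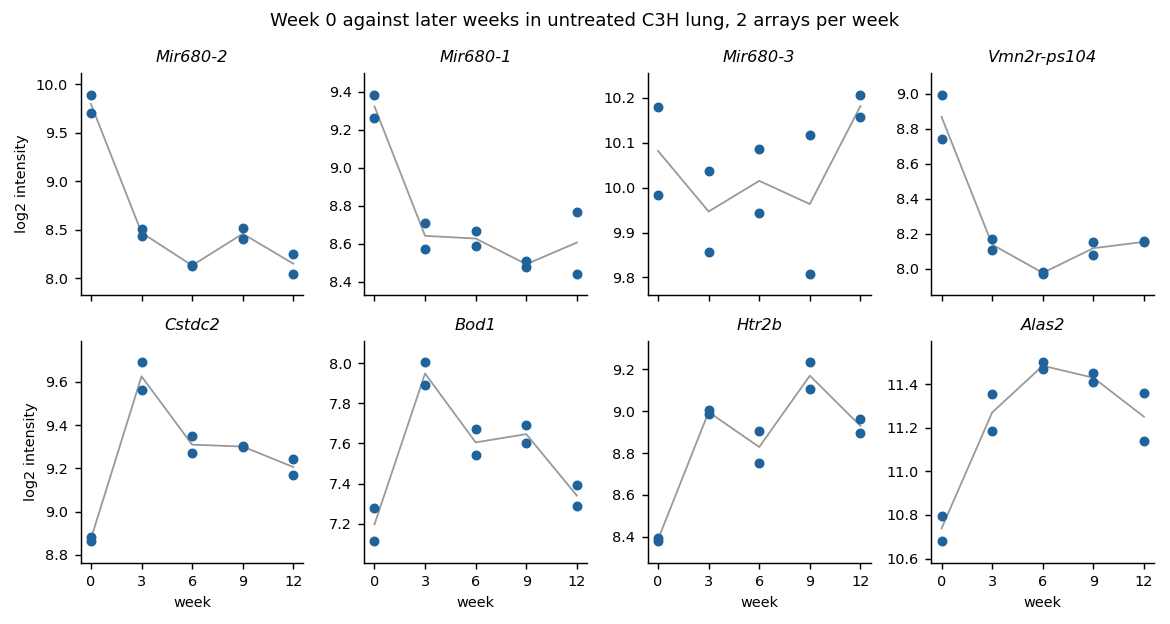
Log2 intensity (y axis) by week (x axis) of 8 genes in the 10 untreated C3H arrays, chosen to set week 0 beside the later weeks. Points are arrays, grey lines join the means of 2 arrays, and each panel has its own y range. Mir680-2 and Vmn2r-ps104 were high at week 0 alone, Cstdc2 and Bod1 peaked at week 3, and Mir680-3 and Alas2 did not pass for this step.

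Genes of the circadian clock, which cycle over the day, had 2 calls in this strain. Of 13 clock genes of the repressor phase 2 rose (15.4%, beside 1.06% of all genes), Per2 and Usp2, and of 4 tested genes of the activator phase none passed. Per2, which represses the clock, was 10.68 and 10.76 at week 0, 10.44 and 10.66 at week 3, 11.01 and 11.09 at week 6, 11.03 and 10.95 at week 9 and 10.99 and 10.89 at week 12. The arrays from week 6 on lay above those of weeks 0 and 3, and it rose by 0.35 ± 0.072 (adjusted p = 0.0317). Usp2, a deubiquitinase under clock control, rose by 0.39 ± 0.065 (adjusted p = 0.0155). These calls were lost in 6 and 3 of the 10 fits with an array left out. With a straight line on week Per2 did not pass and Usp2 did (limma adjusted p = 0.189 and 0.0381). On weeks 3 to 12 alone neither passed (limma adjusted p = 0.0844 and 0.0644). Per1, Dbp and Hlf did not pass, with changes of 0.24 ± 0.14, -0.13 ± 0.11 and 0.18 ± 0.073. The activator Arntl did not pass either (-0.19 ± 0.074). The E-box CACGTG, a palindrome that clock activators bind, stood in 4 of 11 repressor-phase promoters (36.4%), those of Bhlhe41, Ciart, Per1 and Tef, beside 8.09% of all genes.

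The A/J arrays asked whether the course belongs to the strain. In A/J, 424 genes passed (2.84%), 310 upward (2.07%) and 114 downward (0.762%), and 32 (0.214%), 26 upward (0.174%) and 6 downward (0.0401%), without 3 A/J arrays in which skin genes stood apart. Those arrays were both week 6 arrays and 1 week 0 array, with Krt1, a keratin of the epidermis, at up to 14.77 in A/J against 9.21 to 9.72 in untreated C3H. Of the 420 C3H calls, 56 were called in A/J too, 13.3% of the C3H and 13.2% of the A/J calls, 52 in the same direction. Of the C3H falls tested in A/J, 211 of 258 (81.8%) had lower A/J estimates, beside 47.9% of all genes lower in C3H. Of the rises 139 of 154 (90.3%) had higher A/J estimates, beside 79.2% of all genes higher in C3H. The strain difference of the trend was called for 134 genes (0.896%), 32 with the larger value in C3H (0.214%) and 102 in A/J (0.682%), and for 29 (0.194%) without those 3 arrays. It was called for 24 of the 419 C3H calls tested. With 1 array left out the A/J count ran from 36 to 1250, the highest without the second A/J week 3 array, and the strain count from 19 without the second C3H week 0 array or the first C3H week 12 array to 467 without that A/J array. Without quantile normalization the share of upward A/J calls was 54.2% in place of 73.1%, and the share of strain differences with the larger value in C3H was 44.0% in place of 23.9%.

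No matrix or fibroblast gene named above differed in trend between the strains. In A/J, 4 of 78 tested matrix and fibroblast genes fell, Col3a1, Eln, Lox and Loxl1, and 2 rose, P4ha2 and Tcf21, with 50 lower estimates. Col3a1 changed by -0.86 ± 0.11 in A/J (adjusted p = 0.00796), and the difference of C3H minus A/J was 0.11 ± 0.12 (adjusted p = 0.71). Eln changed by -1.06 ± 0.11 in A/J (adjusted p = 0.00417), with a difference of 0.47 ± 0.13 (adjusted p = 0.137). A p that misses the threshold does not show that the trends were alike.

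Among B cell and plasma cell genes, 0 of 30 tested passed in A/J, where 22 had higher estimates. The difference was called for Cr2 (1.08 ± 0.24, adjusted p = 0.0479, or 0.0978 without the 3 A/J arrays). It was called as well for 3 of the 5 kappa segments, Igkv4-91, Igkv19-93 and Igkv6-20, and was lost without those arrays (adjusted p = 0.0667, 0.124 and 0.118). Of these segments, Igkv4-91 was not among the genes tested for the week trend in A/J alone. For Jchain the difference was 1.70 ± 0.57 and did not pass (adjusted p = 0.205).

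All 4 genes called in opposite directions were microRNA genes, Mir145a, Mir143, Mir181b-1 and Mir30e, named for the smooth muscle pair miR-145 and miR-143 and for 2 broadly expressed families. In C3H Mir145a was 10.90 and 11.26 at week 0, 10.91 and 10.24 at week 3, 9.73 and 9.74 at week 6, 9.59 and 9.50 at week 9 and 9.996 and 10.43 at week 12. Weeks 6 and 9 were the lowest and week 12 lay between them and week 0. It fell by 1.10 ± 0.18 (adjusted p = 0.013) in C3H and rose by 1.21 ± 0.22 (adjusted p = 0.0285) in A/J, a difference of -2.31 ± 0.33 (adjusted p = 0.00394). Mir143 fell by 1.02 ± 0.23, Mir181b-1 by 0.86 ± 0.15 and Mir30e by 0.72 ± 0.13, and the 4 falls, in this order from Mir145a, were lost in 2, 8, 3 and 5 of the 10 fits with an array left out. Mir30e also departed from a line (adjusted p = 0.0433), with its lowest arrays at weeks 6 and 9. With a straight line on week none of the 4 C3H falls passed (limma adjusted p = 0.137, 0.215, 0.243 and 0.350 in the same order). With the spread of all 18 C3H arrays Mir181b-1 alone passed (limma adjusted p = 0.0242). Mir145a, Mir143 and Mir30e then had 0.0792, 0.123 and 0.169. In NNK-treated C3H arrays Mir145a changed by 0.025 ± 0.37 over weeks 3 to 12 and did not pass (adjusted p = 0.985). All 4 probe sets had their 4 lowest untreated C3H arrays at weeks 6 and 9. Without the 3 A/J arrays the difference had adjusted p = 0.0327 for Mir145a, 0.0499 for Mir143, 0.0153 for Mir181b-1 and 0.0153 for Mir30e.

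Clock genes had the clearest strain differences. The hour of collection is not among the sample labels, and its part in these differences was not tested. The 6 genes with the smallest p were Hlf, Dbp, Per3, Bhlhe41, Hc and Per1, of which Hc, complement component C5, is no clock gene. Dbp, an output gene of the clock, changed by -0.13 ± 0.11 in C3H and rose by 1.55 ± 0.10 in A/J (adjusted p of the difference = 0.000291). For these 6 the difference passed in all 25 alternative fits run, with the largest adjusted p being 0.015. In A/J the median change of repressor-phase genes was 1.53, and in C3H it was 0.17.

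**Figure D5:**
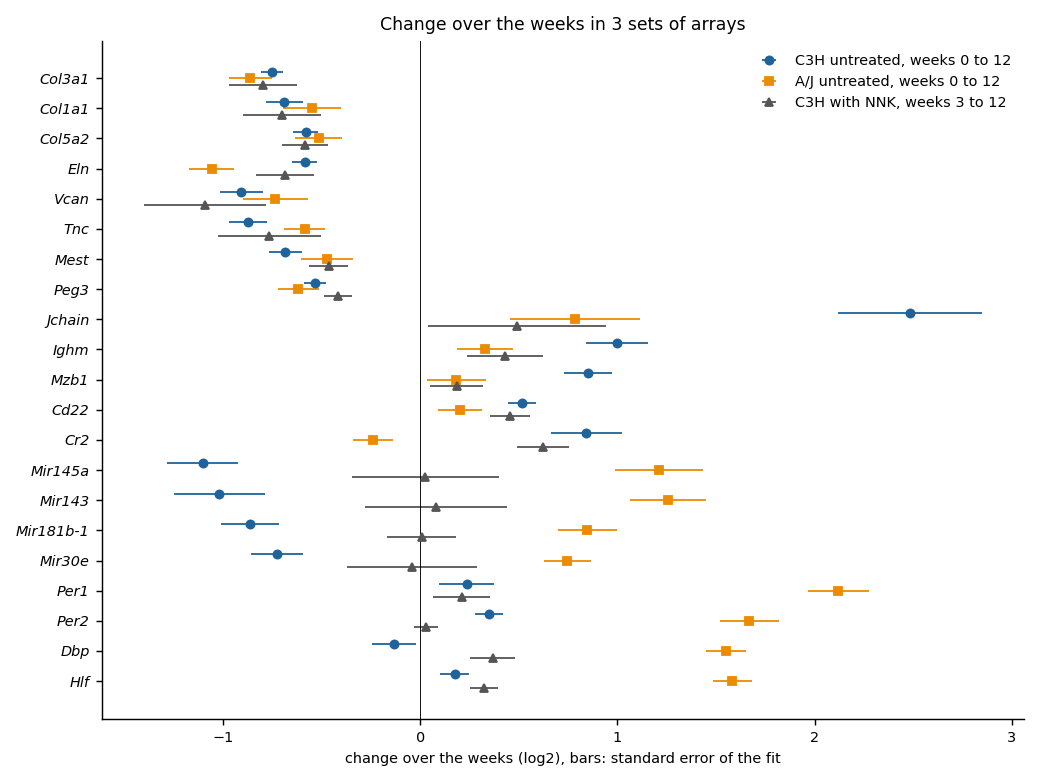
Change over the weeks (x axis, log2) of 21 genes (y axis) in untreated C3H (weeks 0 to 12), untreated A/J (weeks 0 to 12) and NNK-treated C3H lungs (weeks 3 to 12), with standard errors of the 3 fits. Col3a1, Col1a1, Col5a2, Eln, Vcan and Tnc lie below 0 in all 3 sets, the 4 microRNA genes lie on opposite sides of 0 in the untreated strains, and the 4 clock genes lie far above 0 in A/J.

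The 8 NNK-treated C3H arrays, which share no array with the untreated course, covered weeks 3 to 12 after NNK. In their trend the passing weeks and the time since NNK cannot be told apart, so it is no repeat of the untreated course. Week 0, which the untreated trend includes, is absent from these arrays. There 19 genes passed (0.127%), 3 upward (0.0201%) and 16 downward (0.107%), with 0 to 394 when an array was left out. The count was 394 without the second week 3 array, 10 without the first, and 0 without any single array of weeks 6 or 12 or without the second week 9 array. Of the falls of the untreated course 199 of 256 (77.7%) had lower estimates, beside 51.4% of all genes lower there, and 115 of 158 rises (72.8%) had higher ones, beside 62.5%. Col3a1 changed by -0.80 ± 0.17 (adjusted p = 0.136), and the first week 3 array stood apart at 11.42 against 10.76 on the second. The 2 matrix genes called there were Mfap5 (-0.61 ± 0.074) and Lox, which encodes the crosslinking enzyme lysyl oxidase (-0.80 ± 0.10, adjusted p = 0.0439 and 0.0495). B and plasma cell genes had 0 calls among 30, with 26 higher estimates and a median of 0.37.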

How the data were processed

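Lung total RNA was hybridised to Affymetrix Mouse Gene 1.0 ST arrays. The deposited values are linear intensities of 35556 probe sets on 36 arrays. Per the submitters' processing notes, the authors summarised them by PLIER within the Expression Console software. Versions, settings and build are not given in the sources used here. From the deposited intensities log2(intensity + 16) was computed and quantile normalized over all 36 arrays, and log2 values are printed throughout. A gene symbol came from the platform annotation for 21789 probe sets, 1621 had several and 12146 none. Symbols were looked up by 21698 Entrez IDs in a RefSeq GRCm38.p6 table, which changed 0. One probe set per gene, the brightest on average, was kept, and the dimmest 25% on the 10 untreated C3H arrays were left out, which gave 14953 of 19938 genes. Per-sample columns not used numbered 0.

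limma 3.58.1 in R 4.3.3 fitted a mean per week to the 10 arrays, with 5 residual degrees of freedom. The trend is the linear contrast, scaled to the log2 change over 12 weeks, and steps and the departure from a line came from the same fit. The A/J, NNK and strain contrasts were fitted alike on their own arrays. P-values were adjusted by Benjamini-Hochberg over all genes tested at 0.05. Precision is limited by how few arrays there are. Tested on simulated data for this trend with 14953 genes, 81 of 100 genes changed by 0.5 (log2) and 100 of 100 changed by 1 were recovered, with 12 unchanged genes called.

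The members and the 56 gene lists (1020 genes, 927 on the array, 840 tested, 13 old symbols replaced) were chosen with earlier results of these data known. Genes were named by a rule: the 10 largest rises and falls past 0.05, up to 4 genes with the smallest p per list with 3 or more calls or calls in 20% of its tested genes, the 3 largest rises and falls per step, the 6 smallest p for the departure and for the strain difference, the clock lists and a set of anchor genes. Other genes named were chosen after their values were seen. Alternatives were normalization, offset, filter, variance model, fit, weeks, a replicate block and each array left out. The fits without 3 A/J arrays were added after the data were seen. The difference between the first and second array of a week correlated between weeks at -0.21 to 0.25 over 10 pairs of weeks, 4 over 0.1. Promoter and microRNA sequences are RefSeq's (GRCm38.p6).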

Additional observations from a re-analysis of the deposited data

Results flagged for a closer look

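The week trend differed between untreated C3H and untreated A/J lungs, by limma's test of the difference itself, for 21 of the genes named here. All values are C3H minus A/J in log2 over 12 weeks. For 11 genes of the clock repressor-phase list the difference was negative. It was -1.41 for Hlf, -1.68 for Dbp, -1.19 for Per3, -1.68 for Bhlhe41 and -1.88 for Per1. It was -1.32 for Per2, -0.69 for Nr1d2, -0.98 for Tef, -1.45 for Ciart, -0.66 for Cry2 and -1.15 for Usp2. Cry1, a clock repressor whose level peaks with the activators, had a difference of -0.50. Without the 3 A/J arrays in which skin genes stood apart the calls of Cry2 and Cry1 were lost (limma adjusted p = 0.0829 and 0.0659).

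The 4 microRNA genes that were called in opposite directions had differences of -2.31 for Mir145a, -2.28 for Mir143, -1.71 for Mir181b-1 and -1.47 for Mir30e. The kappa segments had differences of 4.83 for Igkv4-91, 2.64 for Igkv19-93 and 1.70 for Igkv6-20. The B cell complement receptor gene Cr2 had one of 1.08. These 4 calls were also lost without those arrays. Igkv4-91 was not among the genes tested for the week trend in A/J alone, so its difference has no A/J change beside it. Hc, complement component C5, differed by 0.74.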

How the results depend on the processing

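The C3H trend count of 420 was 219 with a straight line on week, 136 with the spread of all 36 arrays, 81 on weeks 3 to 12 and 82 on weeks 0 to 9, and 78 to 391 with 1 array left out. In the same order the rises were 77, 49, 11 and 38 (19 to 159), the falls 142, 87, 70 and 44 (59 to 263) and the matrix and fibroblast falls 13, 9, 4 and 4 (8 to 20). The upward share of the trend calls was 37.6%, and 13.6% on weeks 3 to 12. B and plasma cell rises were 4 with the spread of all 36 arrays, 4 with trended robust variances, 5 with array weights, 1 on weeks 3 to 12, 0 on weeks 0 to 9 and 3 to 18 with 1 array left out. The other settings run for the trend gave 298 to 560 calls. Genes departing from a line were 5 without quantile normalization, 3 with an offset of 1, 28 without a filter, 1 with the spread of 18 C3H arrays and 0 to 8 with 1 array left out. The step to week 3 had 28 calls without quantile normalization, 114 without a filter, 9 with the spread of 18 C3H arrays and 2 to 12 with 1 array left out. The later steps had 0 calls, and with 1 array left out 0 to 3, 0 to 1 and 0 to 3. A/J calls were 214 without quantile normalization, 3454 with the spread of all 36 arrays, 32 without the 3 A/J arrays and 36 to 1250 with 1 array left out. NNK calls were 51 without quantile normalization, 4 without a filter, 63 with the spread of all 36 arrays and 0 to 394 with 1 array left out. Strain differences were 75 without quantile normalization, 29 without the 3 A/J arrays and 19 to 467 with 1 array left out. On weeks 3 to 12 the sign turned for Alas2 (-0.034), Cstdc2 (-0.38) and Vmn2r-ps104 (0.056), where week 0 is left out by construction. It also turned for Dbp (-0.13 to 0.042) and Cd3e (-0.0088 to 0.089), which passed in neither fit. For the other changes the cause was not tested. Over the 62 named genes that passed and 23 alternatives, 938 fits kept the call, 468 lost it and 2 turned the sign (Alas2 and Vmn2r-ps104).

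The labels do not say whether array numbers pair the samples of different weeks. With the replicate number as a block the trend had 431 calls, 159 rises and 272 falls, with 24 matrix and 10 B and plasma cell genes. The same block gave 7 departures, 13 genes for the step to week 3, 580 A/J calls, 152 strain differences and 0 NNK calls.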

Other observations

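Several lists outside the matrix and B cell lists had 1 or 2 calls each, beside 2.81% called among all genes. The share was 3.33% of endothelial and 5.26% of alveolar macrophage genes, close to that of all genes, and 7.14% to 10.5% of the other lists named here. Vwf, which encodes the clotting factor that endothelium stores, was the only one of 30 endothelial genes that passed, and it rose by 0.38 ± 0.059 (log2 over 12 weeks, limma adjusted p = 0.0109). Of 14 natural killer and cytotoxic cell genes 1 fell, the lectin receptor gene Klrd1, by 0.48 ± 0.10. Of 21 genes of interstitial macrophages and monocytes 2 fell, the chemokine receptor genes Cx3cr1 and Ccr2, by 0.26 and 0.37, although 15 of the 21 had higher estimates. In alveolar macrophage genes 1 of 19 rose, the lipase gene Lpl, by 0.34 ± 0.059. Of 19 complement genes 2 rose, C4b by 0.45 ± 0.071 and the lectin pathway protease gene Masp1 by 0.43 ± 0.094. Nlrc5, the activator of MHC class I genes, rose by 0.27 ± 0.058 and was the only one of 12 class I genes that passed. These genes were named after their values were seen.

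Immediate-early genes, which respond within minutes to handling and injury, had 0 calls among 24 in C3H with limma, and 21 had lower estimates with a median of -0.34. Their list mean lay between 9.88 and 10.84 over the 10 arrays. Glucocorticoid-responsive genes had 0 calls among 17, with 15 higher estimates. In the A/J trend 11 of 24 immediate-early genes rose and 0 fell, with a median of 0.71. There 7 of 17 glucocorticoid-responsive genes rose and 0 fell, with a median of 0.41. Among all genes 2.07% rose in A/J. Why these lists rose in A/J was not tested. Of 7752 tested probe sets with no or several gene symbols, which the gene counts leave out, 112 (1.44%) passed, 30 upward and 82 downward.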
